A study of Mus musculus with 2 samples.

Results

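The 9 genes described here are the Zic transcription factor genes Zic1, Zic2, Zic4 and Zic5 and the midbrain-hindbrain patterning genes En1, En2, Otx2, Gbx2 and Pax2. They were picked by symbol or older synonym, with earlier results of these arrays known, including the low mDom-/- values of Zic1 and En2. All 9 had a probe annotated to them alone, 1 probe each, among 18069 genes with such a probe. RNA came from whole embryo proper of mice at embryonic day 8.5, from 1 pool of 42 wild-type embryos and 1 pool of 45 litter-matched embryos homozygous for a mutation of mDom, each hybridised to 1 single-colour array. mDom is the submitters' name for the gene now called Ep400, which encodes the p400 ATPase of a chromatin-remodelling complex. The sources used here do not give the allele or the strain, and name no transgene or other treatment for either group. With 1 array per group there was no replicate and no test, so every difference below compares these 2 pools. In whole-embryo RNA, fewer cells of a type and less RNA per cell cannot be told apart.

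Zic proteins carry zinc fingers related to those of the Gli proteins, and act in the dorsal neural tube, the roof of the brain and the dorsal somites. The border between midbrain and hindbrain forms where Otx2, the gene of the anterior side, meets Gbx2, the gene of the posterior side, and each represses the other. Pax2 is among the first genes switched on across that border, En1 and En2 follow, and the organizer there signals through Fgf8 and Wnt1 to pattern the midbrain and the cerebellum.

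Zic1 and Zic4 are next to each other on chromosome 9 with no annotated gene between them in the RefSeq table, and Zic5 and Zic2 are near each other on chromosome 14 with 1 long non-coding gene between them. The upstream windows of Zic1 and Zic4 are printed because these neighbours gave different ratios on the arrays, and those of En1 and Gbx2 because they hold a motif that Zic1 also holds. The sequences are RefSeq's, build GRCm38.p6, 5′ to 3′ on the strand of the gene, and cover the 250 bases before 1 annotated start. Capitals mark CACGTG, an E-box.
Zic1, chr9:91365769-91366018, minus strand: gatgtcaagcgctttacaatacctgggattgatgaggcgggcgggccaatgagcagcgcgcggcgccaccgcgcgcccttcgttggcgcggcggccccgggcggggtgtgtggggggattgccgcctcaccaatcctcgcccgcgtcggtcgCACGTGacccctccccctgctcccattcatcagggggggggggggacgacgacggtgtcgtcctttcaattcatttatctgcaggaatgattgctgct
Zic4, chr9:91368722-91368971, plus strand: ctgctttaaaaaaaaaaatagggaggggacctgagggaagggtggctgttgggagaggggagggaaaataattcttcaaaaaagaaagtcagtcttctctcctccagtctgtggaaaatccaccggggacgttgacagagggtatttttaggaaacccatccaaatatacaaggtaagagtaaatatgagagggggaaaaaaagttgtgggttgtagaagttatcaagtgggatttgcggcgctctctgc
En1, chr1:120602237-120602486, plus strand: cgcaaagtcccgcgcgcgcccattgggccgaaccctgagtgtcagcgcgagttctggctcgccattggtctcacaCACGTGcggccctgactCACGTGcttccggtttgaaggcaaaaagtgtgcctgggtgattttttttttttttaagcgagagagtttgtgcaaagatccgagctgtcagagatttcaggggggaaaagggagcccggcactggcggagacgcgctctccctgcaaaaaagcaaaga
Gbx2, chr1:89931177-89931426, minus strand: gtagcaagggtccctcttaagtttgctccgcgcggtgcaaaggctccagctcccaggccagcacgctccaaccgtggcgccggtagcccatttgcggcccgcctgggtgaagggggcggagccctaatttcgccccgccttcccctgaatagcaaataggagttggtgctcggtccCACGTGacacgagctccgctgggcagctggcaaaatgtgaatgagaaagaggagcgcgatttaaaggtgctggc
These motifs were searched on both strands as exact letters: TAATTA, a homeodomain core, TAATCC, the core read by OTX proteins, CAGCAGG, a core of ZIC sites, CTTTGAT for TCF and LEF factors, and CACGTG. The table held a window for 7 of the 9 genes, all but Zic2 and En2, and 12 windows in all, since Otx2 and Pax2 had several starts. CACGTG was in the windows of Zic1, En1 and Gbx2, and in 6.02% of all 32851 windows of the same length. That share was not matched for CpG content. The motif holds a CpG, and these windows had 27, 19 and 18 CpG pairs, where the median window had 6. TAATTA was found in 2 of the Otx2 windows (4.84% of all windows) and TAATCC, on the other strand, in 1 of these (6.25%). CAGCAGG (8.44% of all windows) and CTTTGAT (3.21%) were in none of the 12. The Zic1 window had 66% G and C and 27 CpG pairs, and the Zic4 window 44.4% and 4, where the median over all windows was 52.4% and 6. Zic4 has other annotated transcripts whose starts are not covered by its window. A match is a description of letters, and the 3 genes with CACGTG gave 1 low ratio and 2 ratios near 0 or above.

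Each intensity was divided by the median of its array. A floor was set at 0.541 times that median, below which a spot was not read as signal. The log2 ratio is mDom-/- minus wild-type, and at least 2-fold apart was the rule of size. Of the 9 genes, 7 were above the floor on both arrays and Zic5 and Pax2 on neither. Over all 13137 genes with a spot above the floor on at least 1 array, 0.929% were at least 2-fold lower and 0.845% at least 2-fold higher in the mDom-/- pool, and the median log2 ratio was -0.00361. Among the 7 genes, Zic1 and En2 were at least 2-fold lower and 0 were 2-fold higher. Because the genes were chosen with these values known, the share says nothing about the set. A repeat measure came from genes with 2 probes above the floor: over 1302 such genes the SD of a log2 ratio, from the difference between their probes, was 0.25, an error of probe and hybridisation that leaves out differences between pools.

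Both targeted-gene probes, of Ep400, lay under the floor on both arrays (0.470 and 0.215 in wild-type, 0.0714 and -0.0295 in mDom-/-), so the labels could not be checked against them. A second probe could be compared for 13 of the 233 genes past the size rule; it pointed the same way for 8 of them and passed the rule in that direction for 1. Since Zic1 and En2 each had 1 probe, their values have no such second reading.

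**Figure D1:**
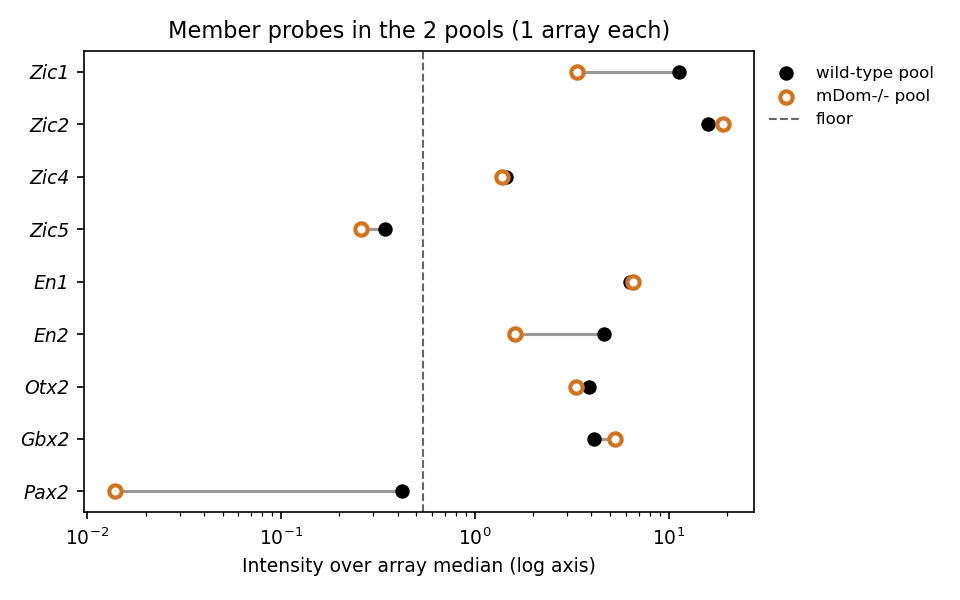
Intensity of the probe of each of the 9 genes, in units of the array median on a log axis, in the wild-type pool (filled) and the mDom-/- pool (open), 1 array each, with the floor at 0.541 as a dashed line. Zic1 and En2 are the pairs of points above the floor that lie far apart, while Zic5 and Pax2 lie under the floor in both pools.

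Zic1, a gene of the dorsal neural tube and later of the cerebellum, had the lowest ratio of the set. Its probe read 11.3 in the wild-type pool and 3.39 in the mDom-/- pool, 3.33-fold lower, a log2 ratio of -1.74. Both readings were far above the floor, at 20.9 and 6.27 times it. Of the 13137 compared genes, 19 had a ratio this low or lower, Zic1 included, and among the 2981 genes between the 50th and 75th percentile of mean log2 intensity Zic1 was the lowest. Of these genes of like brightness 8, or 0.268%, were at least 2-fold lower.

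The other Zic genes above the floor did not share this difference. Zic2, which is needed for closure of the neural tube and for forming the forebrain midline, read 16.1 in wild-type and 19.2 in mDom-/-, 1.19-fold higher, a log2 ratio of 0.26. That ratio was about as large as the probe SD of 0.25. Zic4, the neighbour of Zic1, was dim in both pools, with 1.45 and 1.37 and a log2 ratio of -0.08. Its reading was 2.69 and 2.54 times the floor, among the dimmest 25% of genes, where the robust SD of the log2 ratio over genes was 0.35. Zic5 read 0.344 and 0.259, both under the floor, so no ratio is given for it. The gap between Zic1 and Zic2 was 1.99 on the log2 scale and that between Zic1 and Zic4 1.66, which are 5.66 and 4.70 times the SD expected of a difference between 2 probes. The gap between Zic2 and Zic4 was 0.34, or 0.953 times it. Zic1 was chosen with its low value known, and this SD leaves out differences between pools, so the multiples are not a test. The SD was also taken over probes of all brightness, while Zic4 was dim.

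Among the midbrain-hindbrain genes the engrailed pair gave different values. En2, a homeobox gene of the midbrain and the cerebellar primordium, read 4.66 in wild-type and 1.61 in mDom-/-, 2.90-fold lower, a log2 ratio of -1.54. Its readings were 8.63 and 2.97 times the floor. Of all compared genes 26 had a ratio this low or lower, and so had 2 of the 2981 genes between the 25th and 50th percentile of brightness, En2 included both times. En1, its paralogue, which is active in the same region somewhat earlier, read 6.31 and 6.58, a log2 ratio of 0.06. The gap between En1 and En2 was 1.60 on the log2 scale, 4.54 times the SD of a difference between probes. En2 too was chosen with its low value known, so this multiple is not a test.

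The genes on either side of the border gave small ratios of opposite sign. Otx2, the fore- and midbrain gene, read 3.89 in wild-type and 3.33 in mDom-/-, a log2 ratio of -0.22. Gbx2, the anterior hindbrain gene, read 4.14 and 5.29, 1.28-fold higher, a log2 ratio of 0.35, which is 1.41 times the probe SD. Pax2, which also marks the kidney, ear and eye primordia, read 0.419 and 0.0138, both under the floor, so the low mDom-/- reading has no ratio. The medians of the Zic genes (3 compared) and of the midbrain-hindbrain genes (4 compared) were both -0.08, with ranges from -1.74 to 0.26 and from -1.54 to 0.35. Each group held 1 gene past the size rule. With the floor at the 60th percentile, where Zic4 was not compared, the Zic median was -0.74 and the Zic median minus the midbrain-hindbrain median -0.66.

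**Figure D2:**
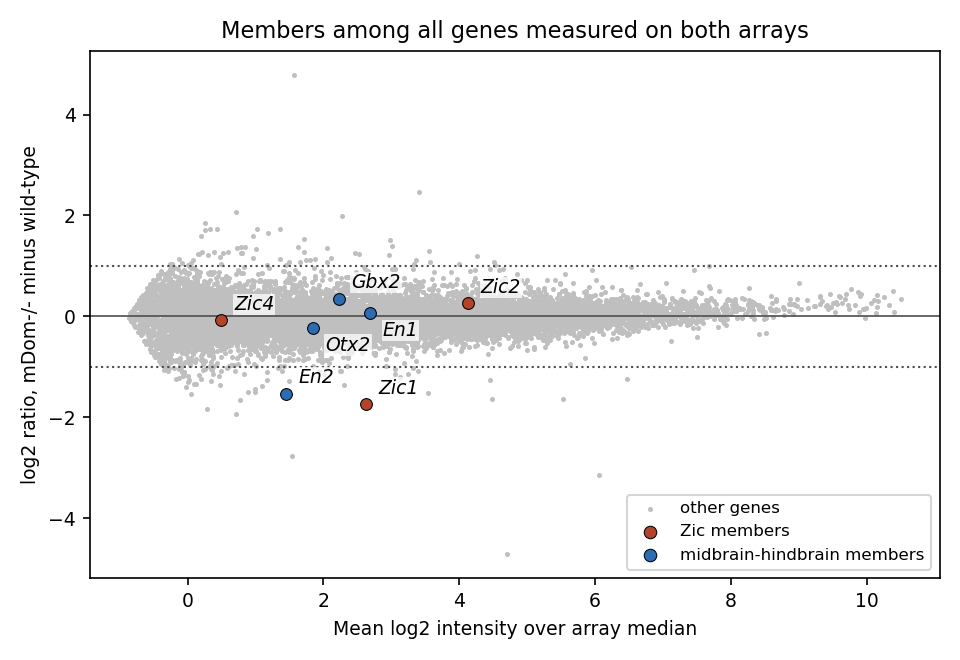
Log2 ratio (mDom-/- minus wild-type) against mean log2 intensity over the array median for the 11926 genes above the floor on both arrays, with Zic genes in red and midbrain-hindbrain genes in blue. Dotted lines mark 2-fold. Zic1 (-1.74) and En2 (-1.54) lie below the cloud and the other 5 genes lie inside it, between -0.22 and 0.35.

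The signals of the midbrain-hindbrain organizer went both ways, none of them past 2-fold. Fgf8, the main organizer signal, which at this stage is also made in the tail bud, read 17.2 in wild-type and 18.7 in mDom-/-, a log2 ratio of 0.12. Wnt1, made in the midbrain and along the dorsal midline, read 5.60 and 6.19, a log2 ratio of 0.15, the highest measured on both arrays in its list. Of the other FGF ligands, Fgf15 read 2.44 and 1.60, 1.52-fold lower, Fgf18 had a log2 ratio of -0.37, and Fgf17, dim in both pools, had -0.09. Of 19 genes of organizer signals and their feedback, 17 were compared, 13 lay below 0 (50.5% of all compared genes did) and 4 above. Of the 17, 0 passed the 2-fold rule, where Spred2 entered as a bound. Their median was -0.09 beside -0.00361 over all compared genes. The lowest was Spred1, an inhibitor of Ras signalling, from 1.40 to 0.760, a log2 ratio of -0.88. Spred2, under the floor in wild-type only (0.455 and 0.870), was at least 1.61-fold higher. Spry1, Spry2 and Dusp6, feedback genes of FGF signalling, had -0.08, -0.08 and -0.30, while Spry4 had 0.12, with 0.998 at its second, dimmer probe.

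Other transcription factors of the region showed no ratio past 2-fold. Of 15 listed, 12 were compared and the median was -0.00467. The lowest was Otx1, the paralogue of Otx2, from 21.3 to 16.8, a log2 ratio of -0.35. The highest was Lmx1b, a LIM homeobox gene of the organizer, from 0.545 to 0.849, a log2 ratio of 0.64, although its wild-type reading was barely above the floor. Pax5, a relative of Pax2 in the same region, had -0.20 at 0.994 and 0.864, Gbx1, the relative of Gbx2, had 0.05, and Pax8 lay under the floor on both arrays.

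Relatives and partners of the Zic proteins had a median of 0.00580 over 9 compared of 10, with 0 past the 2-fold rule. Gli2 and Glis2 entered as bounds, so their differences may be larger. The lowest measured on both arrays was Mdfi, which encodes an inhibitor of MyoD-family factors that also binds Zic proteins, from 1.41 to 1.01, a log2 ratio of -0.48. Gli2, a Hedgehog effector, was at least 1.88-fold lower, below the floor in mDom-/- only. The highest was Sufu, an inhibitor of Gli proteins, from 0.602, near the floor, to 0.942, a log2 ratio of 0.65. The dorsal neural tube and roof plate list had a median of 0.15 over 11 of 14 genes and 0 past 2-fold. By the probe used for each gene, it ran from Bmp4, a dorsalizing signal, at -0.18 to Olig3, a gene of dorsal progenitors, at 0.52. Bmp7 had -0.04, with 0.53 at its second probe. Pax3, a dorsal gene like Zic1, read 9.51 and 9.47 and had a log2 ratio of -0.00684, with -0.24 at its second probe, and the dorsal homeobox genes Msx1 and Msx2 had 0.17 and 0.26. The part of dorsal neural tube cells in the Zic1 ratio of -1.74 was not tested.

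Lists for neighbouring parts of the brain were described in the same way. The forebrain list, 10 of 12 genes compared, had a median of -0.05 and ran from Lhx2 (-0.48), an eye and forebrain gene, to Hesx1 (0.74), a gene of the anterior neural plate that read 5.81 and 9.69. In the hindbrain segment list 7 of 13 were compared, with a median of 0.08, from Hoxa2 (-0.29) to Hoxb1 (0.22), and Egr2, the gene of 2 hindbrain segments, had 0.11. Neither list had a gene past 2-fold.

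The ventral neural tube list had a median of -0.26 over 8 of 12 genes. Of these 2 were at least 2-fold lower, beside 0.929% of all compared genes. The lists were chosen with earlier results known, so this share says nothing about the list. Dbx1, a homeobox gene of intermediate progenitors, read 3.35 in wild-type and 1.18 in mDom-/-, 2.84-fold lower. Nkx6-2, a ventral homeobox gene, read 1.18 and 0.575, 2.05-fold lower, although its mDom-/- reading was barely above the floor. In the same list Foxa2, a floor plate gene, was highest at 0.36, and Shh, Nkx2-2 and Olig2 lay under the floor on both arrays. With the floor at the 60th percentile Dbx1 had a bound of -0.92 and Nkx6-2 was not compared. The general neural plate list, 11 of 12 genes compared, had a median of -0.12. Hes5, a Notch target of neural progenitors, was 2.83-fold lower (3.12 and 1.10, and a bound of -0.82 with the 60th percentile floor), and Fabp7, a gene of radial progenitors, was highest at 0.52.

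**Figure D3:**
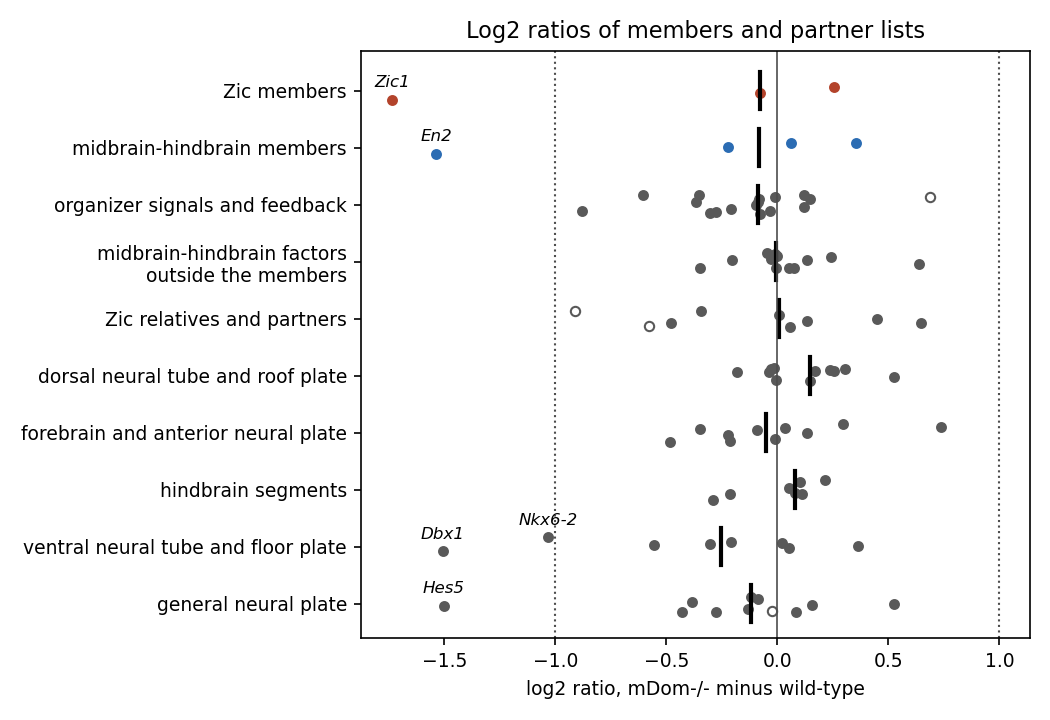
Log2 ratios (mDom-/- minus wild-type) of each compared gene in the Zic and midbrain-hindbrain sets and in 8 partner lists. Points are genes, open points are bounds with 1 array under the floor, black bars are medians and dotted lines mark 2-fold. Zic1, En2, Dbx1, Nkx6-2 and Hes5 are the labelled genes past the line, and every list median lies between -0.26 and 0.15.

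Markers of the tissues in which these genes are active were set beside Zic1 and En2. The neural plate markers, 5 of 6 compared, summed to 46.9 in wild-type and 39.9 in mDom-/-, with none past the 2-fold rule and Msi1 entering as a bound. Such sums add the readings of all compared markers, those under the floor on 1 array included, and the brightest probes weigh most in them (here Pax6 and Sox3, at 19.9 and 18.4 in wild-type). Their lowest was Pax6, at -0.38, and their highest Sox1, at 0.09, while Sox2, a defining gene, was under the floor on both arrays at 0.389 and 0.478. Somite markers, 7 of 7 compared, summed to 95.0 and 98.7, with Uncx lowest (-0.68) and Msgn1 highest (0.36). Neural crest markers, 5 of 5 compared, summed to 55.4 and 45.4, with Sox10 2.30-fold lower (13.3 and 5.79) and Tfap2a 2.28-fold lower (1.44 and 0.634, under the floor on both arrays when that was set at the 60th percentile), and Twist1 highest at -0.02. All 5 crest markers lay above the floor of 0.541 on both arrays. Of all compared genes 0.929% were at least 2-fold lower, but the marker lists too were chosen with earlier results known. The part of these tissues in the Zic1 and En2 readings was not tested.

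The remaining marker lists were set beside Pax2 and Gbx2, although Pax2 lay under the floor on both arrays and has no ratio. The part of these tissues in the Gbx2 ratio was not tested. Intermediate mesoderm markers, 3 of 4 compared, summed to 5.49 and 4.95, from Wt1 (-0.34) to Osr1 (-0.11). Ear placode markers, 4 of 7 compared, summed to 8.30 and 7.52, with Foxi2 at -0.30 and Dlx5 at 0.00223 measured on both arrays. The other compared ear markers entered as bounds. Sox9, under the floor in mDom-/- only, was at least 1.33-fold lower. Oc90, under the floor in wild-type only, was at least 1.10-fold higher. Optic markers, 4 of 5 compared, summed to 14.3 and 13.0, from Lhx2 to Vax2 (0.43). Primitive streak and tail bud markers, 4 of 5 compared, summed to 40.9 and 46.5, from Mixl1 (-0.31) to Wnt3a (0.30). Surface ectoderm markers, 5 of 6 compared, summed to 47.1 and 45.1, from Epcam (-0.15) to Cdh1 (0.22) among those measured on both arrays. Its Trp63 was at least 2.44-fold lower at 1 probe, but a second probe, dimmer with the chosen floor, had a log2 ratio of 0.23. With the floor at the 25th percentile or with none, the ratio taken for Trp63 was that 0.23.

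**Figure D4:**
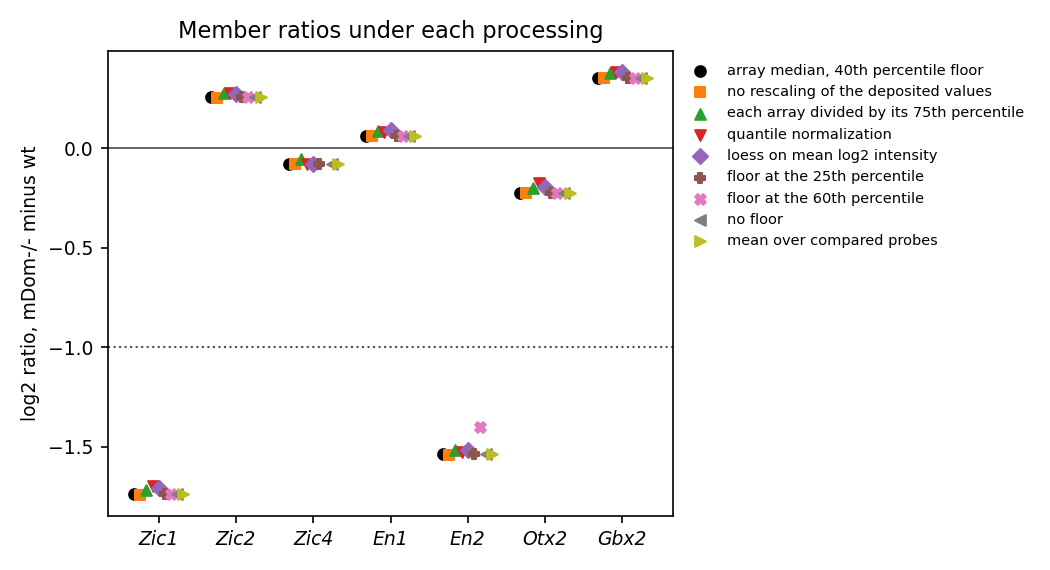
Log2 ratio of the 7 compared genes under the chosen processing (black circles) and 8 alternatives, with the dotted line at 2-fold lower. Zic1 stayed between -1.74 and -1.70 and En2 between -1.54 and -1.40, and the other 5 genes stayed between -0.23 and 0.38.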

How the data were processed

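Values were the deposited spot intensities of 2 arrays on a linear scale. Per the labels, CodeLink System Software read the array images. Its version, background correction, scaling and detection flags are not stated in the labels. The medians were 1.0503 and 1.0485, and -9999 was read as no value (105 and 106 probes of 36227). Probes with several symbols named no gene, and 21487 of 21615 probes with 1 symbol were matched to the GRCm38.p6 RefSeq table by Entrez identifier for current symbols. Each array was divided by its median, raised to the floor (the higher of the 40th percentiles) and put on the log2 scale. Where 1 array was at the floor the ratio is a bound. A gene took its probe of highest mean log2 intensity.

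The genes and lists were chosen with earlier results of these data known. Named were the 9 genes, Fgf8, Wnt1, list genes at least 2-fold apart, and the lowest and highest of each list. Also named were the 3 genes nearest to Zic1 and to En2, with clone, predicted-gene and sequence identifiers left out. Other list genes were singled out with their values known. The computation was tested on simulated data. Python 3.11.15, pandas 2.3.3, numpy 2.4.6 and statsmodels 0.14.6 were used. The number of arrays limits the precision.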

Additional observations from a re-analysis of the deposited data

How the results depend on the processing

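Alternatives were no rescaling, the 75th percentile, quantile normalization, loess (span 0.3), the mean over probes, no floor or one at the 25th or 60th percentile, and size rules of 1.5-fold and 3-fold. Across the settings that gave a value, the ratios of Zic1, Zic2, Zic4, En1, En2, Otx2 and Gbx2 kept their sign and moved by less than the probe SD of 0.25. With the 60th percentile floor En2 was a bound, at least 2.64-fold lower, and Zic4 was not compared. Leaving Zic4 out took the Zic median to -0.74 and its difference from the midbrain-hindbrain median to -0.66, from 0.00184. The count of genes past the size rule was 1 (Zic1) with the 3-fold rule and 3 with no floor, where Pax2 was added. Zic5 had a log2 ratio of -0.41 with the 25th percentile floor and with none. Pax2 had a bound of -0.81 with the 25th percentile floor, its mDom-/- reading lying under it, and -4.92 with no floor, against an mDom-/- reading of 0.0138 that may hold no signal. Scaling moved the median over all genes by less than 0.1. Of 101 alternative values, 98 moved by less than the probe SD or, for counts, by at most 1.5 times. Part of these could not move. The mean over probes cannot alter a gene with 1 probe, nor a floor a gene that stays above it on both arrays. The ratios of Zic5 and Pax2 were not among the 101. No paired analysis was possible because each group had 1 array, and no replicate could be left out.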

Other observations

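Genes were ranked by the Euclidean distance between their pairs of log2 intensities on the 2 arrays. Those whose symbol is a clone, predicted-gene or sequence identifier were left out. Nearest to Zic1 were Foxd1 (distance 0.53), Prmt5 (0.66) and Fbn2 (0.68). Foxd1, a forkhead transcription factor gene, read 7.92 in wild-type and 3.07 in mDom-/-, 2.58-fold lower. Prmt5, an arginine methyltransferase gene, and Fbn2, a fibrillin gene, had log2 ratios of -0.99 each. Nearest to En2 were Tlx1 (0.19), Tlcd4 (0.34) and Tgfb3 (0.39). Tlx1, a homeobox gene, read 4.37 and 1.80, 2.43-fold lower. Tlcd4 was 2.11-fold lower, and Tgfb3, a growth factor gene, had -0.99. With 2 arrays this likeness is only a like level and a like ratio.

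Several homeobox paralogues of the neural tube, set side by side after their values were seen, gave unlike ratios within a pair. The gap was 1.20 on the log2 scale between Dbx1 (-1.51) and Dbx2 (-0.30), 0.82 between Nkx6-1 (-0.21) and Nkx6-2 (-1.03), and 1.60 between En1 and En2. It was 0.12 between Otx1 and Otx2, 0.30 between Gbx1 and Gbx2, 0.09 between Msx1 and Msx2 and 0.18 between Irx1 and Irx2. These gaps come from 1 probe per gene and were not tested.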
